A study of Mus musculus with 16 samples.

Results

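The AP-1 and small Maf transcription factors described here are the products of 10 genes, Fos, Fosb, Fosl1, Fosl2, Jun, Junb, Jund, Atf3, Maff and Mafk, of 19938 genes that the array measures with an unambiguous symbol. They were chosen by name, each is measured by exactly 1 probe set, and all 10 were found. RNA of mouse embryonic fibroblasts (MEFs), connective tissue cells cultured from embryos, was hybridized to 16 arrays of the Affymetrix Mouse Gene 1.0 ST type, with 4 arrays in each of 4 groups. The groups were SIMPL-/- MEFs (IRAK1BP1 KO in the labels) given recombinant human TNFα, SIMPL-/- MEFs left untreated, littermate MEFs (WT in the labels) given TNFα, and littermate MEFs left untreated. SIMPL, encoded by Irak1bp1, is a co-activator of the NF-κB subunit p65. All 4 groups share the strain C57Bl/6 x 129Sv, and TNFα was used at 10 ng/ml for 45 min by the labels, while the methods state 1 h. By the methods, MEFs of each strain came from a single embryo on 4 independent occasions, and no source says which arrays share an embryo or a hybridization day, so batch and genotype cannot be told apart. Every value below is a log2 signal from RMA (robust multi-array average), and p-values measure the spread between arrays.

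AP-1 is a dimer of basic leucine zipper (bZIP) proteins. Jun proteins pair with each other or with Fos proteins, whereas Fos proteins need a Jun partner to bind DNA. TNFα receptors activate the JNK, p38 and ERK kinases, which phosphorylate AP-1 subunits and the factors at their promoters, and many AP-1 genes are immediate early genes whose transcription starts within minutes. Atf3 is a stress-induced bZIP factor that represses many promoters as a homodimer. The small Maf proteins have a leucine zipper but no transactivation domain, and they pair with CNC factors such as Nfe2l2 (Nrf2) and with Bach1 at antioxidant response elements.

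Promoter sequence from RefSeq (mouse build GRCm38.p6) was matched for 9 of the 10 genes, which have 11 windows of 250 bases before a transcription start, since Maff has 3 listed starts. The windows were searched on both strands for 5 motifs, the AP-1 motif TGANTCA, the cyclic AMP response element (CRE) TGACGTCA, its core TGACG, the CArG box bound by serum response factor and the κB consensus of NF-κB. Every CRE also holds the core. The last 120 bases before the start are shown for Fos, the member with lower mean signal after TNFα in both genotypes, for Junb, the Jun gene with the largest response, and for Atf3 and Maff, whose responses differed most between the genotypes. Capitals mark a CRE or its core on either strand. Fos lies at chr12:85473770-85473889, plus strand, Junb at chr8:84978749-84978868, minus strand, Atf3 at chr1:191183334-191183453, minus strand, and the second start of Maff at chr15:79347400-79347519, plus strand.
Fos: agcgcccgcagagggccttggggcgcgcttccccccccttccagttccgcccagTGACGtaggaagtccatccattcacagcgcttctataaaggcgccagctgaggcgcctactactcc
Junb: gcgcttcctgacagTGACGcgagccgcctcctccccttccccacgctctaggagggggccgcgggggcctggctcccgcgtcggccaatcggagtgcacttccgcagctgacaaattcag
Atf3: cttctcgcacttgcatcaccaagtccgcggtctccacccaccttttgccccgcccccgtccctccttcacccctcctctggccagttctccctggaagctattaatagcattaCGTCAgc
Maff: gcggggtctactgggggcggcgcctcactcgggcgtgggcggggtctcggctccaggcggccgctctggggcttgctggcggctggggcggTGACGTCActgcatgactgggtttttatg

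The full CRE was found in 1 member gene, 29 to 22 bases before the second start of Maff, and in 1.55% of all 32851 promoter windows of the same length. The CRE core was found in 6 member genes (Fos, Fosb, Junb, Atf3, Maff and Mafk), in 7 of the 11 windows, and in 17.8% of all windows. In Fos it stands 66 to 62 bases before the start and again further upstream, in Junb 106 to 102 bases before it, and in Atf3 7 to 3 bases before it on the opposite strand. The κB consensus was found in 4 genes (Fos, Fosb, Fosl2 and Maff, at the start listed last) and in 7.25% of all windows. The AP-1 motif was found in 0 of the 11 windows, against 6.75% of all windows, and the CArG box in 0, against 1.47%. A match describes the letters only, and a motif without a match is absent from these windows alone. Only the exact patterns were searched, so sites that vary from them would be missed.

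TNFα raised 9 of the 10 genes in littermate MEFs and 7 of 10 in SIMPL-/- MEFs, and lowered 0 in either (limma, adjusted p under 0.05). At an unadjusted p under 0.05, 0 fell in SIMPL-/- MEFs and 1 in littermate MEFs, which is Fos, where 9.4% and 8.32% of all genes fell. The methods' t-test, adjusted over all genes, called 5 genes higher in SIMPL-/- MEFs, without Jun and Atf3 (adjusted p = 0.0562 and 0.069), and 6 in littermate MEFs, without Fosb, Fosl1 and Fosl2 (0.0542, 0.0675 and 0.0883), and 0 lower. Of all 19938 genes, the same test called 175 higher and 66 lower in SIMPL-/- MEFs, and 301 higher and 200 lower in littermate MEFs. At over 1.5-fold and p under 0.001, cutoffs in the paper's Results taken here as unadjusted, it called 4 of the 10 genes higher in each genotype. The share of all genes at these cutoffs was not counted. At the adjusted p from limma, 1.73% of all genes rose and 1.39% fell in SIMPL-/- MEFs, and 2.7% rose and 2.45% fell in littermate MEFs. With each array centred on its median, 401 genes rose and 152 fell in SIMPL-/- MEFs, against 345 and 278 with the values as deposited. The median log2 fold change of the 10 genes was 0.64 in SIMPL-/- MEFs, where that of all genes was −0.02, and 0.84 in littermate MEFs, where that of all genes was 0.01. Fos stood alone with negative values in both genotypes. The treated arrays lay above all untreated arrays for 8 of the 10 genes in SIMPL-/- MEFs (below for Fos) and for 9 in littermate MEFs. The share of all genes that separate in this way was not counted, so these counts have no background beside them.

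**Figure D1:**
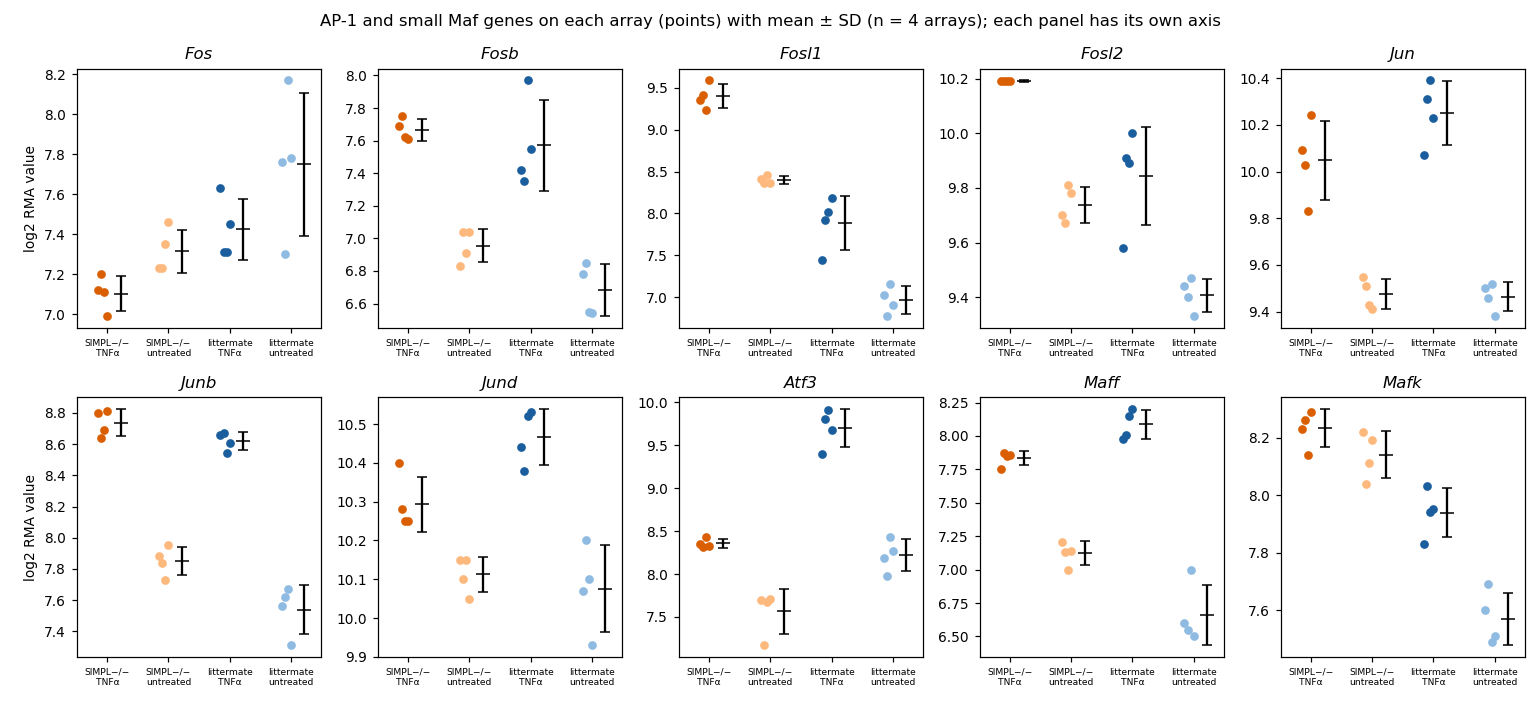
Log2 RMA signal of the 10 genes on each of the 16 arrays, 1 panel per gene, with the 4 groups on the x axis, a point per array and the group mean ± SD (n = 4) beside the points. Fosl1 is highest in TNFα treated SIMPL-/- MEFs (mean 9.40), Atf3 in TNFα treated littermate MEFs (mean 9.70), and Fos in untreated littermate MEFs (mean 7.75).

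Fos (probe set 10397346, chr12:85473890-85477274), the prototype immediate early gene and partner of Jun, was not raised in these cells at the time point measured. Earlier times were not measured, so an earlier rise would not be seen. In SIMPL-/- MEFs it had 7.12, 7.20, 7.11 and 6.99 with TNFα, against 7.23, 7.23, 7.35 and 7.46 without. In littermate MEFs it had 7.63, 7.31, 7.31 and 7.45 with TNFα, against 7.76, 7.30, 8.17 and 7.78 without. The SIMPL-/- groups do not overlap, and among littermate MEFs the untreated array at 7.30 lies with the treated ones. The log2 fold change was −0.21 in SIMPL-/- MEFs (95% confidence interval −0.47 to 0.05, adjusted p = 0.455 from limma) and −0.32 in littermate MEFs (−0.59 to −0.06, adjusted p = 0.176). Without untreated littermate replicate 2, the array at 7.30, the littermate value was −0.47 and passed the threshold (adjusted p = 0.00989).

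Fosb (probe set 10560481, chr7:19302696-19310118), a Fos relative that is also an immediate early gene, rose in both genotypes. In SIMPL-/- MEFs the treated arrays spanned 7.61 to 7.75 and the untreated ones 6.83 to 7.04, and in littermate MEFs these spans were 7.35 to 7.97 and 6.54 to 6.85. Treated and untreated arrays thus did not overlap in either genotype. The rise was 1.64-fold in SIMPL-/- MEFs (adjusted p = 0.000404 from limma) and 1.85-fold in littermate MEFs (adjusted p = 1.78e-05).

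Fosl1 (Fra-1, probe set 10460585, chr19:5447698-5455938) encodes a protein without the transactivation domain of Fos and is itself a target of AP-1. In SIMPL-/- MEFs it had 9.36, 9.42, 9.24 and 9.59 with TNFα, against 8.41, 8.36, 8.46 and 8.36 without. Littermate MEFs had 7.44, 7.92, 8.02 and 8.18 with TNFα, against 7.03, 6.77, 7.16 and 6.91 without. The 4 groups do not overlap, and the lowest untreated SIMPL-/- array lies above the highest treated littermate array. TNFα raised Fosl1 by 2.01-fold in SIMPL-/- MEFs (log2 1.01, SE 0.12, adjusted p = 2.59e-05 from limma) and by 1.89-fold in littermate MEFs (0.92, SE 0.12, adjusted p = 4.72e-05). Fosl2 (Fra-2, probe set 10520862, chr5:32136472-32157840), its closest relative, stood at 10.19 on all 4 treated SIMPL-/- arrays, against 9.67 to 9.81 untreated, and at 9.58 to 10.00 on treated littermate arrays, against 9.33 to 9.47 untreated. It rose by 1.37-fold in SIMPL-/- MEFs (adjusted p = 7e-04) and by 1.35-fold in littermate MEFs (adjusted p = 0.00066).

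Among the Jun genes, Junb responded most. Junb (probe set 10580282, chr8:84976909-84978748) encodes a Jun protein that is a weaker activator than Jun and can oppose it. In SIMPL-/- MEFs it had 8.80, 8.64, 8.69 and 8.81 with TNFα, against 7.88, 7.84, 7.73 and 7.95 without. In littermate MEFs it had 8.66, 8.67, 8.54 and 8.61 with TNFα, against 7.56, 7.62, 7.67 and 7.31 without. Treated arrays of both genotypes lie close together, and untreated SIMPL-/- arrays lie above untreated littermate ones. The rise was 1.85-fold in SIMPL-/- MEFs (log2 0.89, SE 0.07, adjusted p = 2.22e-07 from limma) and 2.12-fold in littermate MEFs (1.08, SE 0.07, adjusted p = 5.92e-09).

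Jun (probe set 10514466, chr4:95049036-95052222), a substrate of JNK from which the kinase takes its name, had 10.09, 10.03, 9.83 and 10.24 in treated SIMPL-/- MEFs, against 9.41 to 9.55 untreated. The littermate arrays gave 10.07, 10.31, 10.39 and 10.23 with TNFα, against 9.38 to 9.52 untreated. It rose in both, by 1.49-fold in SIMPL-/- MEFs (adjusted p = 0.000161 from limma) and by 1.72-fold in littermate MEFs (adjusted p = 1.65e-06). Jund (probe set 10572456, chr8:70697739-70700616), the Jun gene known for steady expression in resting cells, moved least of the 3. Its treated arrays spanned 10.25 to 10.40 in SIMPL-/- MEFs, against 10.05 to 10.15 untreated, and 10.38 to 10.53 in littermate MEFs, against 9.93 to 10.20 untreated. The groups did not overlap in either genotype, but only the littermate response passed the test, with 1.31-fold (adjusted p = 0.000426), against 1.13-fold in SIMPL-/- MEFs (log2 0.18, 95% confidence interval 0.05 to 0.31, adjusted p = 0.141).

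Atf3 (probe set 10361091, chr1:191170296-191183333) had the largest mean response of the 10 genes in littermate MEFs. In SIMPL-/- MEFs it had 8.35, 8.31, 8.43 and 8.33 with TNFα, against 7.70, 7.17, 7.67 and 7.71 without. In littermate MEFs it had 9.40, 9.80, 9.91 and 9.68 with TNFα, against 8.19, 7.98, 8.43 and 8.27 without. Treated SIMPL-/- arrays overlap with untreated littermate arrays, and every treated littermate array lies above all others. The rise was 1.73-fold in SIMPL-/- MEFs (log2 0.79, SE 0.12, adjusted p = 0.000458 from limma) and 2.79-fold in littermate MEFs (1.48, SE 0.12, adjusted p = 7.98e-08).

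Maff (probe set 10425283, chr15:79346621-79359078), the small Maf gene known for induction by cytokines, followed closely. In SIMPL-/- MEFs it had 7.75, 7.87, 7.85 and 7.86 with TNFα, against 7.21, 7.13, 7.00 and 7.14 without. Littermate MEFs gave 7.98, 8.01, 8.15 and 8.20 with TNFα, against 6.60, 6.55, 7.00 and 6.50 without. All littermate arrays lie above the SIMPL-/- arrays with TNFα, and below them without it, although the nearest pair of untreated arrays is equal when rounded (7.00). Maff rose by 1.64-fold in SIMPL-/- MEFs (log2 0.71, SE 0.09, adjusted p = 4.39e-05 from limma) and by 2.69-fold in littermate MEFs (1.43, SE 0.09, adjusted p = 1.76e-09).

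Mafk (probe set 10526961, chr5:139791536-139802653), the small Maf gene with broad expression, had 8.23, 8.26, 8.14 and 8.29 in treated SIMPL-/- MEFs, against 8.22, 8.04, 8.11 and 8.19 untreated. In littermate MEFs it had 7.83, 8.03, 7.94 and 7.95 with TNFα, against 7.60, 7.69, 7.49 and 7.51 without. The SIMPL-/- groups overlap and the littermate groups do not. The log2 fold change was 0.09 in SIMPL-/- MEFs (95% confidence interval −0.04 to 0.22, adjusted p = 0.538 from limma) and 0.37 in littermate MEFs (0.24 to 0.50, adjusted p = 0.000982).

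The responses of the genotypes were tested against each other by the difference between them, the SIMPL-/- log2 fold change minus the littermate one. Batch cannot be told apart from genotype and cell type markers also differed, so this compares groups of cultures and not SIMPL alone. Of the 10 genes, 1 passed, Maff, whose response was smaller in SIMPL-/- MEFs (log2 difference −0.72, SE 0.13, adjusted p = 0.00927 from limma). This call was lost with the unmoderated test that stands in for the methods' t-test (adjusted p = 0.0534), under which 0 of the 10 passed. Among all genes, 0.441% had a smaller and 0.0953% a larger value in SIMPL-/- MEFs at the same threshold, 88 and 19 genes (97 and 39 after quantile normalization). The difference for Maff combines a higher untreated and a lower treated level in SIMPL-/- MEFs. Atf3 had a similar difference, −0.69 (SE 0.17, 95% confidence interval −1.05 to −0.33), that did not pass (adjusted p = 0.09). It passed without TNFα littermate replicate 1 (−0.79, adjusted p = 0.0353) or without untreated SIMPL-/- replicate 2 (−0.82, adjusted p = 0.0104).

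The other 8 differences did not pass, among them those for Jund and Mafk, whose responses had passed in littermate MEFs alone. They were −0.28 for Mafk (95% confidence interval −0.47 to −0.09, adjusted p = 0.194 from limma) and −0.21 for Jund (−0.39 to −0.03, adjusted p = 0.323). For Jun and Junb they were −0.22 (−0.45 to 0.02) and −0.19 (−0.41 to 0.02), and for Fosb −0.18 (−0.50 to 0.14). The Fos relatives without a transactivation domain had values near 0, with 0.08 for Fosl1 (−0.27 to 0.44) and 0.02 for Fosl2 (−0.20 to 0.23). Fos itself had 0.11 (−0.26 to 0.48). The median of the 10 differences was −0.20, that of all genes −0.03, and at an unadjusted p under 0.05 the responses of 4 genes (Atf3, Maff, Mafk and Jund) were smaller in SIMPL-/- MEFs, as were those of 8.26% of all genes.

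**Figure D2:**
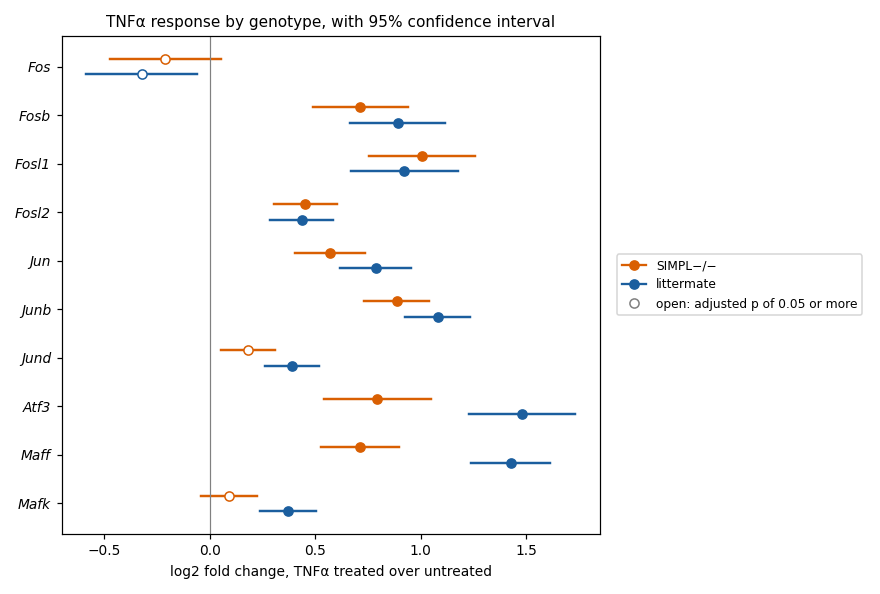
Log2 fold change of each gene, TNFα treated over untreated, on the x axis, in SIMPL-/- and littermate MEFs (n = 4 arrays per group), with 95% confidence intervals as lines and open points where the adjusted p from limma is 0.05 or more. The intervals of the genotypes lie apart for Atf3, Maff and Mafk, with 0.79, 0.71 and 0.09 in SIMPL-/- MEFs against 1.48, 1.43 and 0.37 in littermate MEFs. In the test of the difference only Maff passed (adjusted p = 0.00927 from limma), and Atf3 (0.09) and Mafk (0.194) did not.

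The levels themselves differed between the genotypes, and Fosl1 and Atf3 differed most, in opposite directions. Irak1bp1, the deleted gene, checks the labels: it averaged 5.37 ± 0.24 with TNFα and 5.36 ± 0.19 without in SIMPL-/- MEFs, against 7.91 ± 0.18 and 8.09 ± 0.17 in littermate MEFs (SD, n = 4 arrays each). Whether its probe set lies in the deleted sequence was not examined. Of the 10 genes, 3 were higher and 3 lower in SIMPL-/- than in littermate MEFs after TNFα, and 6 were higher and 2 lower without it. Among all genes, 17.8% were higher and 18.4% lower after TNFα, and 23.3% were higher and 17.6% lower without it. Centring each array on its median gave 5927 higher and 2884 lower genes after TNFα, against 3557 and 3673 as deposited, and 6573 and 3013 without TNFα, against 4640 and 3511. Calls between the genotypes were thus common among all genes on these arrays.

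Calls between the genotypes were also made among markers of other cell types, where 17.6% to 23.3% of all genes were called in either direction and condition. All 20 listed myeloid markers were lower in SIMPL-/- MEFs (median log2 difference −2.26 with TNFα and −2.18 without). Their mean signal per array was 7.34 to 7.48 with TNFα and 7.33 to 7.48 without in SIMPL-/- MEFs, against 9.44 to 9.88 and 9.30 to 9.71 in littermate MEFs. Of 7 epithelial markers, 4 were higher in SIMPL-/- MEFs with TNFα and 5 without. Of 8 endothelial markers, 3 were higher and 1 lower with TNFα and 3 higher without, and of 7 muscle markers 4 were higher with TNFα and 3 without. Many of these had low signal: in each group 6 or 7 of the 8 endothelial and 4 of the 7 muscle markers lay below the median gene. The 14 fibroblast markers averaged 11.80 with TNFα and 11.83 without in SIMPL-/- MEFs, against 12.06 and 12.10 in littermate MEFs, with 9 markers lower and 3 higher in either condition. In bulk RNA, fewer cells of a type and less RNA per cell cannot be told apart. The part of these markers in any difference given here was not tested. Of the myeloid markers, Cd14 and Cybb also rose with TNFα in littermate MEFs, and the Cd14 response was smaller in SIMPL-/- MEFs (difference −0.61, adjusted p = 0.00529 from limma).

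Fosl1 was 2.85-fold higher in SIMPL-/- MEFs after TNFα (log2 1.51, 95% confidence interval 1.26 to 1.77, adjusted p = 6.62e-09 from limma) and 2.69-fold higher without it (1.43, 1.18 to 1.68, adjusted p = 1.67e-08). The other Fra gene, Fosl2, was 1.27-fold and 1.26-fold higher (adjusted p = 0.000669 and 0.00113). Fos went the other way. Its log2 difference after TNFα was −0.32 (−0.59 to −0.06, adjusted p = 0.052), with every SIMPL-/- array below every littermate array. Without TNFα littermate replicate 2 its adjusted p was 0.0495 (log2 −0.36). Without untreated littermate replicate 2 or 3 it was 0.011 and 0.016. The difference then stayed at −0.32, since untreated arrays enter this comparison only through the shared estimate of the spread. In untreated cells the difference was −0.43 (−0.70 to −0.17, adjusted p = 0.00989), a call made although the groups overlap and lost with the methods' t-test (adjusted p = 0.117). Fosb was 1.21-fold higher without TNFα (adjusted p = 0.0483, groups overlap), a call lost in 10 of the 16 fits that left out 1 array (adjusted p from 0.0532 to 0.13). The arrays whose omission kept it were untreated littermate replicates 1 and 2, TNFα littermate replicates 1, 2 and 3 and untreated SIMPL-/- replicate 1. Omitting a TNFα array left the untreated difference at log2 0.27, since these arrays enter it only through the shared estimate of the spread. After TNFα the log2 difference of Fosb was 0.10 (−0.13 to 0.32, adjusted p = 0.525). That value was 0.23 (adjusted p = 0.0439) without TNFα littermate replicate 3, the highest treated littermate array.

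The Jun genes had smaller differences between the genotypes. Junb was 1.24-fold higher in untreated SIMPL-/- MEFs (adjusted p = 0.0023 from limma), and its log2 difference after TNFα was 0.12 (95% confidence interval −0.04 to 0.27, adjusted p = 0.234). Jun had a difference of −0.20 after TNFα (−0.37 to −0.04, adjusted p = 0.0544) and of 0.01 without it (−0.15 to 0.18, adjusted p = 0.91). Leaving out TNFα littermate replicate 1 or TNFα SIMPL-/- replicate 4 took the treated difference past the threshold (adjusted p = 0.0154 and 0.0115). Jund was 1.13-fold lower after TNFα (adjusted p = 0.0329, groups overlap), a call lost when TNFα littermate replicate 3 or 4, or TNFα SIMPL-/- replicate 2, 3 or 4, was left out (adjusted p from 0.0683 to 0.0889). Without TNFα its difference was 0.04 (−0.09 to 0.17, adjusted p = 0.65).

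Atf3 was lower in SIMPL-/- MEFs in both conditions, 2.53-fold after TNFα (log2 −1.34, 95% confidence interval −1.59 to −1.09, adjusted p = 3.7e-08 from limma) and 1.57-fold without it (−0.65, adjusted p = 0.000263). Maff changed sides. It was 1.19-fold lower in SIMPL-/- MEFs after TNFα (log2 −0.25, −0.44 to −0.07, adjusted p = 0.0311) and 1.38-fold higher without it (0.46, adjusted p = 0.00038). The treated call was lost when TNFα littermate replicate 3 or 4, or TNFα SIMPL-/- replicate 1 or 3, was left out (adjusted p from 0.0513 to 0.0891), and under both other scalings of the arrays. Mafk was higher in SIMPL-/- MEFs, 1.23-fold after TNFα (adjusted p = 0.001) and 1.49-fold without it (adjusted p = 6.62e-07), with no overlap of groups in either condition.

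**Figure D3:**
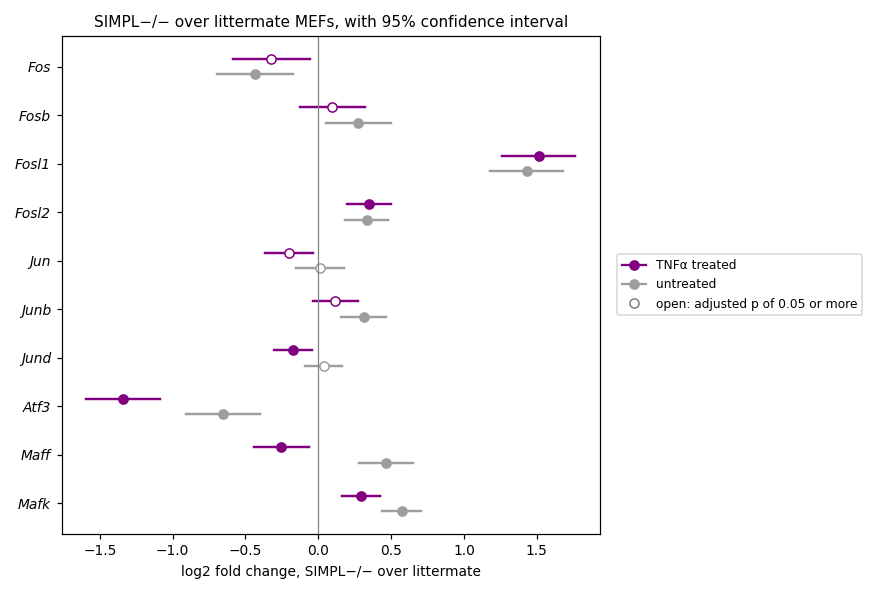
Log2 fold change of each gene, SIMPL-/- over littermate, on the x axis, in TNFα treated and untreated MEFs (n = 4 arrays per group), with 95% confidence intervals as lines and open points where the adjusted p from limma is 0.05 or more. Fosl1 lies furthest to the right (1.51 treated, 1.43 untreated), Atf3 furthest to the left (−1.34 and −0.65), and Maff lies on both sides of 0 (−0.25 and 0.46).

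The kinases, partners and targets around these factors were described with lists chosen, like the 10 genes, with earlier results of these data known. Of 13 measured genes of the MAP kinase cascade upstream of AP-1, 2 rose with TNFα in each genotype and the rest did not pass. Among all genes, 1.73% rose in SIMPL-/- MEFs and 2.7% in littermate MEFs. Map3k8 (Tpl2), which activates the ERK pathway, rose by a log2 fold change of 0.65 in SIMPL-/- MEFs (adjusted p = 4.18e-05 from limma) and of 1.40 in littermate MEFs (adjusted p = 5.58e-10), and this response differed between the genotypes (−0.75, adjusted p = 0.00261). Map2k3, a kinase of p38, was the other gene in SIMPL-/- MEFs (0.29, adjusted p = 0.00847), and Map3k11, a kinase upstream of JNK, the other in littermate MEFs (0.35, adjusted p = 0.00395). Between the genotypes, 4 were higher and 3 lower in SIMPL-/- MEFs after TNFα, and 3 and 3 without it. Among all genes, 17.8% were higher and 18.4% lower after TNFα, and 23.3% and 17.6% without it.

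Serum response factor (Srf), which binds the promoter of Fos, its ternary complex factors Elk1, Elk3 and Elk4, and its coactivators Mrtfa and Mrtfb did not pass the test for TNFα, with 0 of 6 called in either genotype (limma, also 0 at an unadjusted p under 0.05). Srf itself was higher in SIMPL-/- MEFs, by 0.78 after TNFα (adjusted p = 5.19e-07 from limma) and by 0.91 without it (adjusted p = 7.31e-08). Of the 6 genes, Srf, Elk3 and Mrtfa were higher and Elk1 was lower in either condition. Of 15 measured other bZIP partners, 2 rose in SIMPL-/- MEFs and 3 in littermate MEFs, and the rest did not pass. The shares of all genes that rose were 1.73% and 2.7%. Nfe2l2, the CNC partner of the small Mafs, rose by 0.52 in SIMPL-/- MEFs (adjusted p = 8.09e-07) and by 0.26 in littermate MEFs (adjusted p = 0.00156). Bach1, which represses the same elements, rose by 0.40 (adjusted p = 6.91e-05) and by 0.55 (adjusted p = 6.12e-07) in these genotypes. Between the genotypes 2 of the bZIP partners were higher and 7 lower after TNFα, and 1 and 6 without it. Maf, a large Maf gene expressed in macrophages among other cells, was lower in both (log2 differences −0.81 and −0.86, adjusted p = 2.8e-08 and 1.38e-08). Beside the genotype counts of both lists, 17.8% of all genes were higher and 18.4% lower after TNFα. Without TNFα these shares were 23.3% and 17.6%.

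Of 13 measured AP-1 target genes, 8 rose in SIMPL-/- MEFs and 7 in littermate MEFs, and the rest did not pass. Of all genes, 1.73% and 2.7% rose in these genotypes. Ccl2, a monocyte chemokine that is also a target of NF-κB, rose by a log2 fold change of 3.21 in SIMPL-/- MEFs (adjusted p = 3.79e-16 from limma) and 3.38 in littermate MEFs (adjusted p = 9.21e-17). Il6, a cytokine under the control of both factors, rose by 1.65 (adjusted p = 3.82e-06) and 0.89 (adjusted p = 0.00285) in these genotypes. Only Mmp10, a matrix metalloprotease, passed the test of the difference among the 13, with a larger response in SIMPL-/- MEFs (0.48, adjusted p = 0.0268). Its signal was low, with means of 6.92 in treated and 6.30 in untreated SIMPL-/- MEFs, and 6.29 and 6.14 in littermate MEFs. The median log2 fold change of the list was 0.48 in SIMPL-/- MEFs, where that of all genes was −0.02, and 0.29 in littermate MEFs, where that of all genes was 0.01.

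The AP-1 target list held calls in both directions between the genotypes. After TNFα 9 of its 13 genes were higher and 3 lower in SIMPL-/- MEFs, and without it 7 and 2. Of all genes, 17.8% were higher and 18.4% lower after TNFα, and 23.3% and 17.6% without it. In untreated cells Mmp3 (stromelysin) was 5.82-fold lower and Mmp13 (a collagenase) 2.92-fold lower (adjusted p = 3.57e-13 and 5.46e-10 from limma). Plaur, the urokinase receptor, was 3.25-fold higher and Hbegf, an EGF receptor ligand, 2.62-fold higher (adjusted p = 1.76e-12 and 9.23e-10). Of 9 small Maf and CNC target genes, 2 rose and 1 fell in SIMPL-/- MEFs with TNFα, and 2 rose in littermate MEFs. In SIMPL-/- MEFs 1.73% of all genes rose and 1.39% fell, and in littermate MEFs 2.7% rose. Slc7a11, the cystine transporter, rose by 0.50 in SIMPL-/- MEFs (adjusted p = 0.0119) and 0.44 in littermate MEFs (adjusted p = 0.0197). The gene that fell, Nqo1, a quinone reductase, had widely spread treated SIMPL-/- arrays (8.36 ± 0.76, against 9.44 ± 0.08 untreated, SD, n = 4 each) that overlap with the untreated ones (adjusted p = 0.0099). Its level in untreated SIMPL-/- MEFs was 6.68-fold above that in littermate MEFs (adjusted p = 1.31e-08), and 6 of the 9 genes were higher and 3 lower in SIMPL-/- MEFs in either condition.

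**Figure D4:**
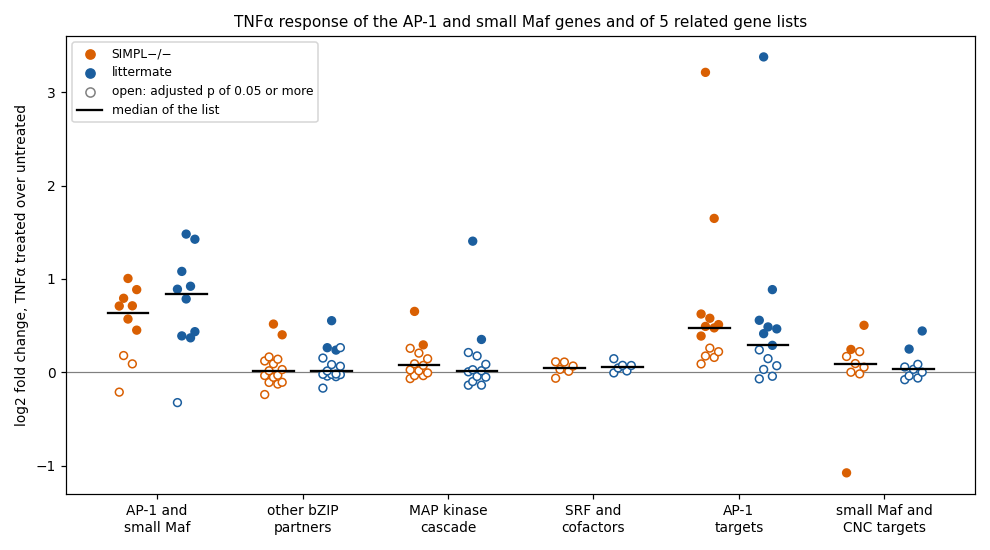
Log2 fold change with TNFα (y axis, treated over untreated) of each measured gene of the 10 AP-1 and small Maf genes and of 5 related lists (x axis), in SIMPL-/- and littermate MEFs (n = 4 arrays per group), with a point per gene, open where the adjusted p from limma is 0.05 or more, and a bar at the median of the list. The 10 genes have medians of 0.64 in SIMPL-/- and 0.84 in littermate MEFs, the AP-1 targets 0.48 and 0.29, and the other lists lie near 0.

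For 4 members, the genes with the most similar profile were found by the root mean square difference of the centred log2 values over the 16 arrays, where 0 is an identical profile. Nearest to Junb were Nfkb2 (0.133), Ifrd1 (0.153) and Zc3h12a (0.161), against a root mean square of 0.514 for Junb's own centred values. Nearest to Atf3 were Slfn2 (0.19), Map3k8 (0.242) and Casp4 (0.261), against 0.794 for Atf3. Nearest to Maff were Btg2 (0.156), Sik1 (0.17) and Ier3 (0.195), against 0.578 for Maff. Fos had no neighbour as close relative to its own spread of 0.294, with Gm4924 at 0.16, Zfp788 at 0.163 and Kcp at 0.167. The neighbours of Maff had log2 fold changes with TNFα in SIMPL-/- MEFs of 0.93 for Btg2, 0.92 for Sik1 and 0.84 for Ier3, against 1.69, 1.55 and 1.34 in littermate MEFs. All neighbours were picked for likeness over these same arrays, so responses similar to those of the member follow from the choice. These likenesses are a description over arrays that share 4 conditions.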

How the data were processed

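RNA from untreated and TNFα treated MEFs was hybridized by the authors to Affymetrix Mouse Gene 1.0 ST arrays. The deposited log2 values were made by the authors with RMA in Partek per the labels (versions not given in the sources used here), while the methods name Affymetrix Microarray Suite. Array medians were 6.67 to 6.76 and values 2.41 to 14.9. Arrays were grouped by their labels. Of 28853 probe sets, 21789 have 1 gene symbol, 1621 have several and 5443 are not listed with a gene, which gave 19938 genes. Where a gene had several probe sets, the brightest was used. Symbols came from the platform annotation, updated through RefSeq.

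In R 4.3.3, limma 3.58.1 fitted a mean for each of the 4 groups to all 16 arrays (12 residual and 6.19 prior degrees of freedom). Tests were two-sided, with Benjamini-Hochberg adjustment over all genes of a contrast, and called at an adjusted p under 0.05. The procedure was tested on simulated data. Members, gene lists and the naming rule (all members, up to 4 called genes of a list per comparison, and the 3 most similar profiles for 4 members) were chosen with earlier results of these data known. Some genes of the lists are not reported here. Alternatives were 2 other scalings, a fit of the compared groups alone, array weights, moderation with trend and robust options, averaging over probe sets, a filter on dim genes, the methods' t-test, an adjusted p under 0.01, and leaving out each array. Whether replicates came from separate cultures was taken from the methods. Precision is limited by the number of arrays.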

Additional observations from a re-analysis of the deposited data

Results flagged for a closer look

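Among the 4 arrays of untreated SIMPL-/- MEFs, replicate 2 stood apart for Atf3, at 7.17, against 7.67 to 7.71 on the other arrays. Its gap to the nearest array was 0.925 of the range of the group, past Dixon's 95% critical value. Of 40 combinations of gene and group examined, this was the 1 flagged, where chance flags about 5% of groups.

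The difference between the TNFα responses of Maff, SIMPL-/- minus littermate, was −0.72 on the log2 scale (adjusted p = 0.00927 from limma), with responses of 0.71 in SIMPL-/- MEFs and 1.43 in littermate MEFs. It stayed past the threshold in each of the 16 fits that left out 1 array (−0.83 to −0.66, adjusted p from 0.000149 to 0.0271), and was lost with the unmoderated test (adjusted p = 0.0534).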

How the results depend on the processing

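No paired analysis was possible because neither labels nor methods link arrays by embryo. With the methods' t-test at 1.5-fold and p under 0.001 (unadjusted), a setting added after the data were seen, 4 genes were called for TNFα in SIMPL-/- MEFs (7 otherwise) and 4 in littermate MEFs (9 otherwise). That setting was applied to the members only, so no share of all genes stands beside it. For the difference between the responses, 2 genes passed with dim genes left out and 2 with array weights, 0 with an unmoderated test, and 1 to 2 with 1 array left out. Atf3 was the gene added (adjusted p = 0.035 without dim genes, 0.0385 with array weights), and Maff the gene lost (0.0534). The difference for Fosl2 was −0.0213 after quantile normalization, against 0.0162. Leaving out 1 array gave differences from −0.0269 to 0.263 for Fos, −0.0675 to 0.181 for Fosl1 and −0.0709 to 0.0673 for Fosl2, and untreated genotype differences from −0.0158 to 0.0335 for Jun and −0.0119 to 0.0778 for Jund.

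Between the genotypes, Maff after TNFα was lost after centring (−0.18, adjusted p = 0.108) and quantile normalization (−0.17, adjusted p = 0.138), and Jund after centring (−0.10, adjusted p = 0.185). With trend and robust moderation, the TNFα response of Jund passed in SIMPL-/- MEFs (adjusted p = 0.0462). The untreated difference of Fosb was lost after quantile normalization (0.0616), and after TNFα Fos passed without dim genes (0.0271), Jun with array weights (0.0162) and Junb after centring (0.0492), among others. Counting members and alternatives together, 364 values kept their call, 13 lost it, 12 gained it and 1 changed sign with other settings. With 1 array left out, these counts were 764, 19, 9 and 8. Leaving out an array of a group not compared could not move a fold change. Such an array enters only through the shared estimate of the spread. Each member has 1 probe set, so averaging over probe sets left the members' values unchanged. The counts of kept calls include these fits. Over all genes, calls for TNFα numbered 241 with the methods' t-test, 406 from the compared groups alone and 1010 without dim genes in SIMPL-/- MEFs (623 otherwise), and 501 with the methods' t-test in littermate MEFs (1026 otherwise). For the difference they numbered 211 without dim genes, 253 with trend and robust moderation and 182 with array weights (107 otherwise). Leaving out 1 array gave 400 to 797 calls in SIMPL-/- MEFs and 66 to 184 for the difference. The causes were not tested.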
